A study of Caenorhabditis elegans with 2 samples.

Results

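Of the 930 autosomal binding peaks of the tagged ETS-4 protein, 301 had their summit in the promoter windows of more than 1 protein-coding gene at once. The window of a gene was taken as the 1000 bp before and 200 bp after each annotated start of a protein-coding transcript, and a peak was kept when its summit lay in windows of at least 2 distinct genes. These 301 shared-promoter peaks were 32.4% of the autosomal peaks (95% Wilson interval 29.4 to 35.4%), out of 1106 peaks on all chromosomes. A further 372 autosomal summits (40%) lay in the window of 1 gene, and 257 lay in none. No binding value entered the choice of members beyond the listing of the peaks.

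The data were chromatin immunoprecipitation sequencing (ChIP-seq) of whole late embryos of Caenorhabditis elegans strain OP509, with the genotype unc-119(tm4063) III; wgIs509, hermaphrodite, taken 5 hours after synchronization by bleaching. The strain carries a stably expressed ETS-4 with GFP and FLAG at its C-terminus, and sonicated chromatin was precipitated with an anti-GFP antibody. The labels give 1 group of 2 biological replicates, and the genotype lists no ets-4 mutation beside the transgene. The authors deposited a list of regions for each replicate, a pooled list and a shorter list of peaks that the irreproducible discovery rate (IDR) procedure keeps when their rank recurs between replicates, called IDR peaks here. No list from an untagged strain was used here, so binding of ETS-4 and enrichment that any GFP-tagged strain would give cannot be told apart. No read counts were given, so library depth is unknown. Wilson intervals cover counting error only, and regions are not replicates of a condition.

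ETS factors are transcription factors that bind DNA words built on a GGAA core, and ETS-4 is known in the worm for roles in adult lifespan and in axon regeneration. Worm genes are closely packed, and many neighbours are divergent, which means that they are transcribed away from each other from a common stretch of intergenic DNA. A protein bound in such a stretch can act on either gene, on both or on neither, and a peak list does not say which. Many worm transcripts are trimmed by trans-splicing or arise from operons, so an annotated start can lie some way from the place where transcription begins.

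Sequence is shown for the 6 shared-promoter peaks of highest signal that could be printed, and then for 5 strong peaks that carry the 8-base words described further on. Each is the plus strand of WBcel235 (ce11), read 5′ to 3′ from the RefSeq assembly, up to 75 bases (40 for the last 5) either side of the summit and kept between the divergent starts and clear of annotated exons. Capitals mark CCGGAA, an extended ETS core, on either strand. They also mark the repeat GAGAGA and the word GACGCAG, and the 8-base words CTAGGCCA, GAGGAGTA or CCACGGCC. In the madf-11/xnd-1 stretch the reverse complements of the GACGCAG word and the GAGAGA repeat overlap.
K10D2.5/prp-19/emb-1 (III:5172600-5172719): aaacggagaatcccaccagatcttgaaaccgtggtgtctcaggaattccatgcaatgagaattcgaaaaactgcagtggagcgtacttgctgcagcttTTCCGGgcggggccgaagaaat
C45G9.2/C45G9.11 (III:5068920-5069065): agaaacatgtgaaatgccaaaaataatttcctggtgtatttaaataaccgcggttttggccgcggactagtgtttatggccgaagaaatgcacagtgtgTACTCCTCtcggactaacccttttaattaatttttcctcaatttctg
tasp-1/K01G5.10 (III:10759179-10759306): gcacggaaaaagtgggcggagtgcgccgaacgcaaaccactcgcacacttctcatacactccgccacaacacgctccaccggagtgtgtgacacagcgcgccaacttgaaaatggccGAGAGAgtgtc
cux-7/C07H6.2/lig-4 (III:7520846-7520921): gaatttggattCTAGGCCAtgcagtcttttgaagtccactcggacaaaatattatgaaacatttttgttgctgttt
jmjd-1.2/F29B9.11 (IV:4660532-4660682): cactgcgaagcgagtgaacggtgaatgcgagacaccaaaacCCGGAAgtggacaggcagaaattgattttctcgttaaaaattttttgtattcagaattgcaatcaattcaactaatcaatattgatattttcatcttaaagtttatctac
tag-340/nhl-2 (III:4899830-4899980): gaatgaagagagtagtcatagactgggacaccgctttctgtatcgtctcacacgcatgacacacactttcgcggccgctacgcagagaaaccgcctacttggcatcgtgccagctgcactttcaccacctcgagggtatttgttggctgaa
madf-11/xnd-1 (III:5603775-5603855): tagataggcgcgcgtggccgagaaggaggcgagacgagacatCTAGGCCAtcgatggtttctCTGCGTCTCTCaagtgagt
C01G10.7/ahsa-1 (V:15085540-15085620): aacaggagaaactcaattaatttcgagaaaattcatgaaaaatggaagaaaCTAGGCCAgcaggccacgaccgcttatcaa
mib-1/smc-3/gly-9 (III:11290711-11290791): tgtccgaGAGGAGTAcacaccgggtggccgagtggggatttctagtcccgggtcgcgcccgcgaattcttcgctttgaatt
dpm-3/rps-23 (IV:12391301-12391381): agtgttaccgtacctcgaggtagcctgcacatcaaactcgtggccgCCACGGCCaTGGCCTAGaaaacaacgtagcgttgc
T10B5.4/cct-7 (V:1871951-1872031): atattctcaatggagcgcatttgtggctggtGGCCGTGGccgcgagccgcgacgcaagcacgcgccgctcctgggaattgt

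Among the 6 strongest of these, CCGGAA stood in the K10D2.5/prp-19/emb-1 and jmjd-1.2/F29B9.11 stretches, and GAGAGA in the tasp-1/K01G5.10 stretch. The C45G9.2/C45G9.11 stretch held GAGGAGTA and the cux-7/C07H6.2/lig-4 stretch held CTAGGCCA. The tag-340/nhl-2 stretch held none of the marked words.

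Summits were dense where promoter windows of several genes overlapped. Sequence in windows of 2 or more genes made up 3.06% of autosomal bases (2.52 Mb) and carried 119 IDR summits per Mb. Sequence in 1 window carried 18.8 per Mb, and sequence in none carried 4.27 per Mb. The top 1106 regions of each replicate alone gave 109 per Mb (275 of 925 autosomal summits) in replicate 1 and 111 per Mb (281 of 931) in replicate 2.

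The pooled list, which also kept weak regions, gave the background for this. Of its 10264 autosomal regions, 9.06% were in the IDR list. Of the 1019 with a summit in shared windows, 29.5% were (95% Wilson interval 26.8 to 32.4%). The share rose with the number of genes. It was 4.32% for regions in no window, 11.3% for 1 gene, 29.0% for 2 genes and 38.6% of 57 regions for 3 or more, where the interval ran from 27.1 to 51.6%. Summits in shared windows also lie nearer to a start, since the nearest of several starts counts. Within bands of equal distance to the nearest start, a comparison added after the data were seen, the shared class was still higher. Within 100 bp of a start 25.9% of 386 shared regions and 8.11% of 703 single-gene regions were IDR peaks. From 101 to 250 bp the shares were 33.3% and 12.5%, from 251 to 500 bp 31.9% and 14.1%, and from 501 to 1000 bp 18.9% of 53 and 10.2%, with overlapping intervals in the last band alone.

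**Figure D1:**
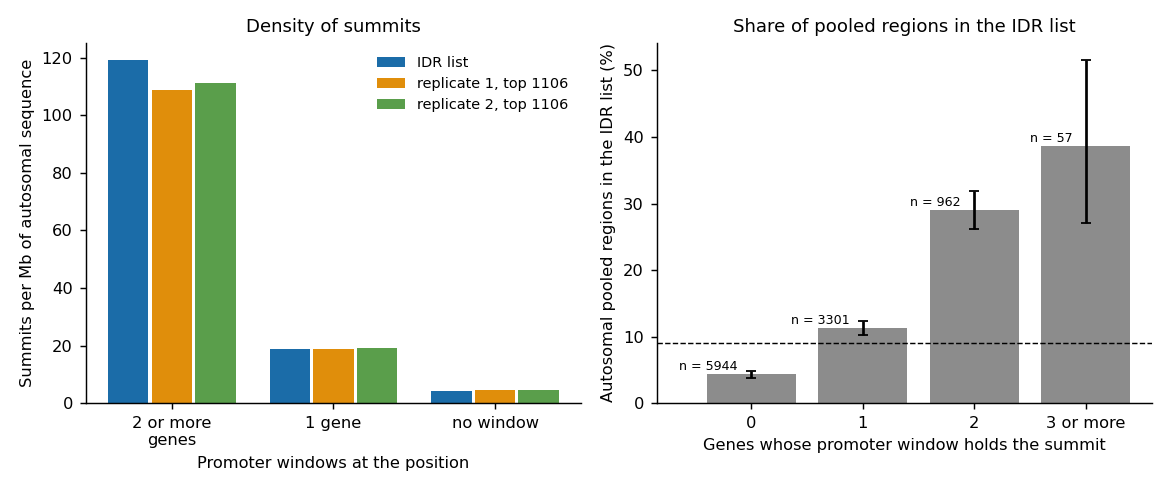
Left: IDR summits and the top 1106 regions of each replicate per Mb of autosomal sequence, split by the number of genes whose promoter window covers the position. The 3 lists give 109 to 119 summits per Mb in shared windows and 18.8 to 19.1 in windows of 1 gene. Right: percent of autosomal pooled regions that are in the IDR list by number of genes, with 95% Wilson intervals as error bars and the 9.06% of all regions as a dashed line.

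Most shared-promoter peaks lay between divergent genes. The genes were divergent at 278 of 301 peaks (92.4%, 95% Wilson interval 88.8 to 94.9%) and in tandem on 1 strand at 23 (7.64%). There were 279 peaks with 2 genes and 22 with 3, and all 22 of the latter were divergent. The 301 peaks named 608 distinct genes in 293 gene sets, and 8 gene sets had 2 peaks each. Of the summits, 265 (88.0%) were intergenic, 23 lay in 5′ UTRs, 11 in introns and 1 in a coding exon. Among single-gene peaks 76.6% were intergenic, and among peaks in no window 53.3%.

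Divergence was common in the pooled list as well, and it did not separate strong from weak regions. Of 931 divergent pooled regions 29.9% were IDR peaks, and of 82 tandem regions 28.0% were. None of 6 pooled regions at overlapping 5′ ends, where the transcripts run into each other, was an IDR peak, with a Wilson interval up to 39.0%. The tandem peaks had a median signal of 136.5 and the divergent peaks 117.2, with quartiles of 96.3 to 162.8 and 85.7 to 171.6 that overlapped widely.

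The starts of divergent pairs were a median of 511.5 bp apart (quartiles 332 and 766.75, range 12 to 1598). The summit lay between them at 261 of 278 peaks. In 165 of these 261 (63.2%) it was in the central 50% of the stretch, and in the pooled shared regions outside the IDR list this was 59.7% of 536. At divergent peaks the nearest start was a median of 153 bp from the summit and the next gene's 356.5 bp. Over all 301 peaks these medians were 151 and 364 bp. For single-gene peaks the nearest start was 271.5 bp away, a value that is larger by construction, since it is not the least of several.

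Seen from the genes, a small minority of divergent promoters carried a peak. Of 2378 autosomal pairs of divergent neighbours with overlapping windows, 260 (10.9%) held an IDR summit in both windows. The share was 10.3% for starts 0 to 250 bp apart, 17.7% at 251 to 500 bp, 14.3% at 501 to 750 bp and 11.1% at 751 to 1000 bp. It was 6.31% at 1001 to 1500 bp and 0.73% at 1501 to 2000 bp, where the doubly covered stretch is short. Per Mb of doubly covered sequence, the stretch 251 to 500 bp apart also had the highest density of the divergent bins, with 239.9 summits against 28.2 at 1501 to 2000 bp. Of 814 tandem pairs 42 (5.16%) held such a summit, and of 45 pairs whose genes face each other none did (interval up to 7.87%). The doubly covered stretch averaged 406 bp in tandem pairs and 777 bp in divergent pairs. Per Mb of this sequence, tandem pairs had 127.0 summits and divergent pairs 144.5. Among the spacing bins the density was higher in tandem pairs at 501 to 750 bp alone, with 233.7 against 144.9. Tandem pairs at peaks with 3 genes, which were classed as divergent, can be among the 42, beside the 23 tandem peaks.

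**Figure D2:**
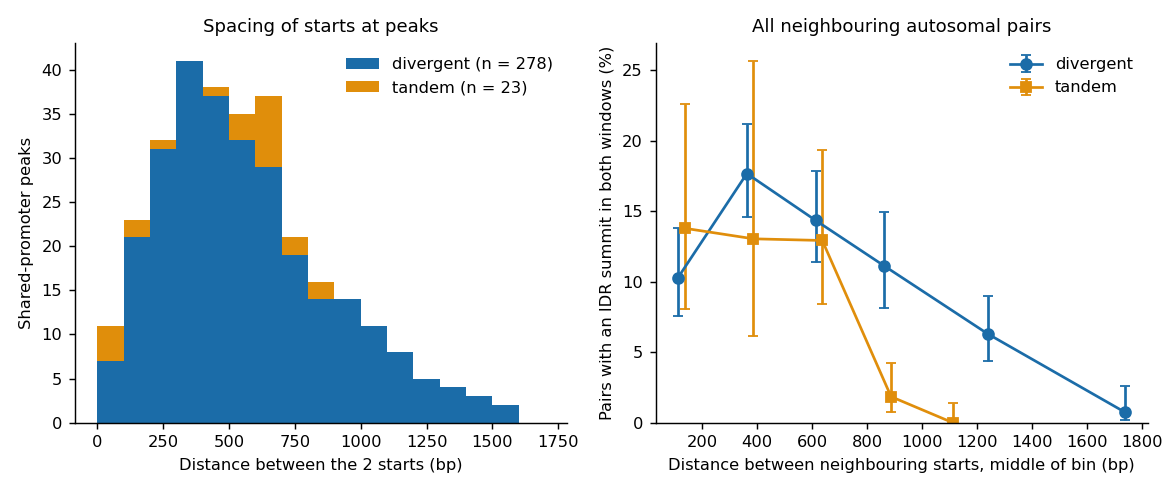
Left: distance between the starts at the 301 shared-promoter peaks in bins of 100 bp, stacked by arrangement. Right: percent of all neighbouring autosomal gene pairs with overlapping windows that hold an IDR summit in both windows, by the distance between their starts, with 95% Wilson intervals. The divergent pairs reach 17.7% at 251 to 500 bp and fall to 0.73% at 1501 to 2000 bp.

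Signal, the authors' value for each region in column 7 of the peak file, was used to rank peaks within a list. The shared-promoter peaks ranged from 71.2 to 727.2 with a median of 119.1 (quartiles 85.9 and 170.9). Single-gene peaks had a median of 109.5 and peaks in no window 96.5, so the ratio of shared to single was 1.09, with widely overlapping quartiles. In the top regions of the replicates this ratio was 1.13 in each. In the whole pooled list it was 1.39, with medians of 45.2 and 32.4. The upper 50% of autosomal IDR peaks by signal held 174 of the 301.

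The highest shared-promoter peak, at III:5172675, had a signal of 727.2, with 295.7 in replicate 1 and 428.8 in replicate 2. Its summit lay 45 bp from the start of K10D2.5, 630 bp from prp-19, a splicing factor on the opposite strand, and 764 bp from emb-1, a subunit of the anaphase-promoting complex. It ranked 3 in the IDR list, 3 in replicate 1 and 2 in replicate 2. The next peak, at III:5068995, had a signal of 500.1 (200.3 and 295.9 in replicates 1 and 2) and lay 71 bp from C45G9.2, annotated as a tRNA-dihydrouridine synthase-like protein, and 270 bp from C45G9.11. The peak at III:10759254 had 434.8, with 217.0 and 218.4, and lay 53 bp from tasp-1, a TASPase homolog, and 732 bp from K01G5.10. All of these 3 were among the 8 strongest regions of each replicate.

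The peak at III:7520846 (signal 401.4, with 166.5 and 236.6 in replicates 1 and 2) lay 1 bp from the start of cux-7 and 163 and 617 bp from C07H6.2 and lig-4, the ligase of DNA end joining. The peak at I:5807471 (389.6, with 197.5 and 195.5) stood between vps-51, a subunit of vesicle tethering complexes, and lin-35, the worm's retinoblastoma protein, 180 and 238 bp from their starts. The peak at IV:4660607 (337.6, with 171.7 and 169.8) lay nearly midway between jmjd-1.2, a histone demethylase, and F29B9.11, a cytochrome c oxidase subunit. Of the 6 peaks described so far, 4 are on chromosome III, and the K10D2.5 and C45G9.2 peaks lie in the stretch from 5 to 6 Mb taken up further on.

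The remaining members of the strongest 20 ran from 273.9 to 345.6. They stood at F56G4.6 and wbp-4, at chaf-2, a chromatin assembly factor subunit, and Y71G12B.30, at F01F1.3 and F01F1.11, and at tag-340 and nhl-2, a TRIM-NHL protein that works with microRNAs. Further ones stood at Y92H12BR.2 and Y92H12BR.3, Y41D4A.4 and Y41D4A.6, rpl-15 of the large ribosomal subunit and K11H12.8, and ears-2, a mitochondrial glutamyl-tRNA synthetase, and uncp-18. The last 6 were madf-11 with xnd-1, which sets meiotic crossover placement, wip-1 with larp-1, an RNA-binding protein, C01G10.7 with ahsa-1, an activator of Hsp90, the tandem genes Y62F5A.12 and mdt-8 of the Mediator complex, pak-2 with C45B11.9, and spat-1, the worm's Bora protein, with F57C2.5. In replicate 1 the strongest 20 had signals of 119.8 to 295.7 and in replicate 2 of 130.2 to 428.8, and 19 of them were divergent.

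The replicates ranked the members in a like order. In replicate 1 the region at each of the 301 had a signal of 18.7 to 295.7 (median 56.7), and in replicate 2 the region at 300 of them had 23.6 to 428.8 (median 63.8). The exception was 1 of the 2 summits at supr-1 and dnj-28, where no region of replicate 2 overlapped the peak. Across the 300 peaks Spearman's rho was 0.74 and Pearson's r on log2 signal 0.75, a description over peaks that were selected from both replicates together. Each peak was given the overlapping replicate region of highest signal. Close summits can thus share a region, as at ruvb-1/tofu-1, C55A6.1/C55A6.10 and fib-1/mut-15, and such regions count more than once here. The same values were 0.64 and 0.70 for single-gene peaks and 0.53 and 0.62 for peaks in no window. Signals also spanned a narrower range in no window, with replicate 1 quartiles of 40.5 and 62.5 against 42.1 and 81.5 at the members. The part of this range in the correlations was not tested. After removal of the median difference, 76% of the shared-promoter peaks differed by less than 1.5-fold and 17 of 300 by more than 2-fold. By this measure the classes were alike, with 73.7% of single-gene and 78.2% of no-window peaks within 1.5-fold. Over 2-fold were 26 of 372 and 8 of 257. Of the 301, 224 (74.4%) were in the top 1106 regions of both replicates and 3 in that of neither. The share in both was similar in the other classes, with 72.3% of single-gene peaks and 70.4% of peaks in no window.

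The largest difference was at gpap-1 and scpr-1, with a signal of 18.7 in replicate 1 and 62.1 in replicate 2, or 3.00-fold after centring. It was followed by T28D9.11 and T28D9.1 (22.04 and 63.6), a divergent pair of Y105C5A genes on chromosome IV, at IV:15646794 (58.2 and 25.9), Y57E12AL.1, Y57E12AL.6 and mdt-6 (51.8 and 23.6), and mig-5, a Dishevelled protein, with cct-1 (20.7 and 54.2). All 5 had a pooled signal between 76.0 and 84.4, below the lower quartile of the members (85.9), and the stronger replicate was 2 in 3 of them and 1 in 2.

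**Figure D3:**
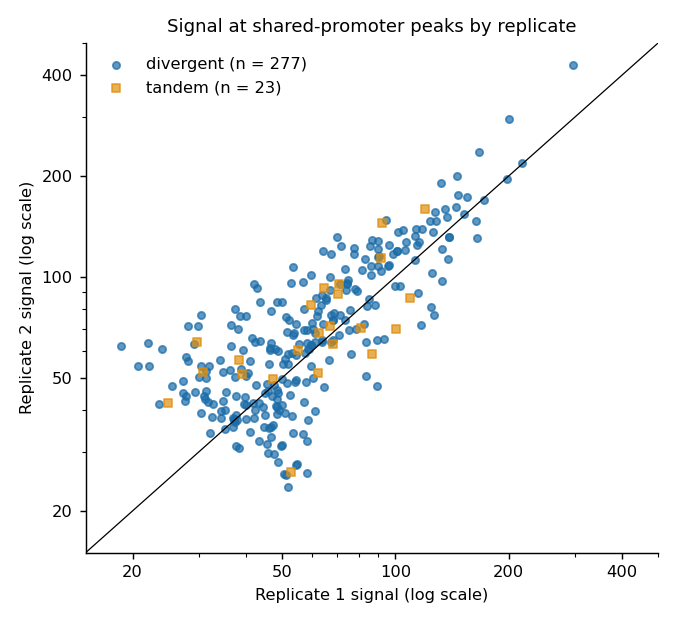
Signal of the region at each shared-promoter peak in replicate 1 and replicate 2 on log axes, for the 300 peaks with a region in both lists. Points are divergent and tandem peaks, the line marks equal signal, and both kinds lie along it (Spearman's rho 0.74 over all 300).

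The 5 weakest members had signals of 71.2 to 71.8, next to the lower end of the IDR list. They stood at F57A10.2 and haf-3, mtss-1, a mitochondrial DNA-binding protein, and mig-22, sgt-1 and btbd-10, snr-6 of the spliceosomal core and Y49E10.16, and rpl-24.1 and rps-10. Pooled regions in shared windows just below the list began at 71.0 (wts-1 and T20F10.2), 70.6 (pld-1 and C04G6.2) and 70.5 (dli-1, tin-9.2 and exos-4.1). At the other boundary, the members whose farthest gene was nearest to the 1000-bp limit were Y62F5A.12/mdt-8 and nop-1/nono-1 (999 bp each), ctns-1/cdc-48.2 (997), ttc-4/cdc-14 (994) and C50B6.3/nasp-2 (977), with signals of 110.0 to 279.4. Just outside were idha-1/lmd-1 (1002 bp), knl-1/C02F5.10 (1007), mys-1/VC5.2 (1009), kars-1/kat-1 (1010) and R107.5/cls-2 (1019), with signals of 78.2 to 205.5.

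In the closest divergent pairs both starts lay 9 to 79 bp from the summit. The starts of F32D8.5 and F32D8.14 were 12 bp apart under a peak of 148.3 (63.5 and 82.4 in replicates 1 and 2). Those of F25H9.7, a succinate dehydrogenase assembly factor, and F25H9.6 were 15 bp apart under a peak of 260.9 (117.8 and 139.2). Those of F01F1.3 and F01F1.11 were 61 bp apart under a peak of 321.3 (131.9 and 190.3), while Y57E12AL.1 and Y57E12AL.6 (60 bp, 82.0) and pign-1 and ztf-23 (62 bp, 78.7) were weak. Closeness therefore went with both high and low signals. In these 5 pairs the summit was in a 5′ UTR at all but the Y57E12AL.1 peak.

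The closest tandem starts were 0 to 102 bp apart. The genes unc-60 and F53E2.2, both annotated as actin-depolymerizing factors, had the same start (0 bp) under a peak of 93.4. wdfy-3 and C26H9A.4 were 9 bp apart (72.9), pqn-51 and K11D12.14 29 bp (136.5), fce-2 and F48F5.8 41 bp (157.0) and tub-2 and Y71G12A.5 102 bp (141.4). The other 18 tandem pairs had starts 119 to 817 bp apart. The strongest of them were Y62F5A.12 and mdt-8 (279.4) and F10E9.11 with sas-4, a centriole assembly protein (236.6). Next came pfd-5, a prefoldin subunit, with exos-9 of the RNA exosome (207.7) and C26B2.7 with elpc-4 (196.8). At these 4 the farther start was 698 to 999 bp from the summit.

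Peaks with 3 genes mostly had a close divergent pair and 1 more distant gene. Their median spacing was 371.5 bp and their median signal 131.8, against 522 bp and 116.5 for divergent peaks with 2 genes. The signal quartiles of 84.1 to 187.2 (22 peaks) and 85.8 to 170.4 overlapped widely. With 3 genes the closest pair on opposite strands set the spacing, which tends to make it smaller by construction. The strongest besides the peaks already given were W03C9.5, rab-7, the late endosomal Rab protein, and mex-1 (255.9, with 132.8 and 121.1 in replicates 1 and 2), and W02H5.19, W02H5.16 and W02H5.2 (243.2, with 112.8 and 132.1). Then came mib-1, smc-3, a cohesin subunit, and gly-9 (199.0, with 71.6 and 123.8) and F10E9.5, F10E9.7 and F10E9.4 (191.4, with 99.7 and 94.0).

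The genes at shared-promoter peaks included many that act in protein synthesis, folding and cell division. Of 17242 autosomal protein-coding genes, 3.53% had a shared-promoter IDR summit, and of the 6071 whose window overlaps a neighbour's, 9.80% did. Among 77 cytosolic ribosomal proteins 26 did (33.8%), or 44.1% of the 59 with an overlapping window. They were led by rpl-15 (signal 307.5), rpl-43 (261.0), rps-12 (248.5) and rpl-20 (232.1). Among 38 translation factors 11 did, or 42.3% of the 26 with an overlapping window. They were led by eif-3.E (242.9) and iff-2 (202.6) and included the elongation factors eef-1A.1 (124.0) and eef-2 (92.6). Mitochondrial ribosomal proteins named mrpl or mrps were close to the background, with 2 of 66. The lists were drawn up by gene name, so members under other names were not counted, such as let-630, annotated as the mitochondrial ribosomal protein mS39 (191.9), and rpl-7A of the large cytosolic subunit (74.1).

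Of 60 chaperones 18 (30%) had a shared-promoter peak, beside 3.53% of all autosomal genes. They were led by hsp-90 (234.7), the chaperonin subunit cct-7 (220.7) and the prefoldin subunits pfd-5 (207.7) and pfd-4 (174.6). Of 96 genes of DNA replication and cell division 19 did (19.8%), led by lig-4 (401.4), mcm-10 (249.99) and the centrosome protein spd-5 (241.8). Of 111 genes of vesicle sorting 19 did (17.1%), led by vps-51 (389.6) and rab-7 (255.9). Of 8 genes of the DREAM and Rb complexes 4 did, namely lin-35 (389.6), lin-54 (121.1), efl-1 (77.9) and lin-53 (73.9). Among genes whose window overlaps a neighbour's, the closer background, the share over all autosomal genes was 9.80%. There it was 48.6% of 35 chaperones, 30.4% of 56 genes of replication and division and 29.2% of 65 of vesicle sorting. Of 6 such DREAM and Rb genes 4 had a shared-promoter peak.

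Smaller counts stood in other lists. They were 10 of 71 genes of the transcription machinery, 9 of 62 splicing factors, 8 of 84 chromatin genes, 6 of 41 respiratory chain genes, 5 of 40 nuclear pore genes, 4 of 33 proteasome subunits and 3 of 18 V-ATPase subunits. These shares ran from 9.52 to 16.7%, beside 3.53% of all autosomal genes. Among genes whose window overlaps a neighbour's, they ran from 16% (proteasome) to 30% (V-ATPase), beside 9.80% of all such genes. Of 32 aminoacyl-tRNA synthetases 2 did (6.25%), of 12 genes of mRNA export 1 (8.33%), of 77 histones 4 (5.19%) and of 69 ubiquitin genes 2 (2.90%). Lists with tissue or sensory roles had 4 of 1276 chemoreceptors, 2 of 246 nuclear hormone receptors and 3 of 144 cuticle collagens. They also had 1 of 64 homeobox genes and 0 of 25 muscle genes. Most genes of these lists had no window that overlaps a neighbour's. Among those with such a window, the counts were 4 of 302, 2 of 46, 3 of 45, 1 of 9 (11.1%) and 0 of 4. The share was 9.80% of all such autosomal genes. Histones (4 of 69), ubiquitin genes (2 of 28) and mitochondrial ribosomal proteins (2 of 38) were also below it. The respiratory chain list leaves out F29B9.11, Y38E10A.24, nduc-2, nduf-2.2, ndua-2, T27E9.2, nduv-2 and ndua-8, which stood at shared-promoter peaks and are annotated as subunits of its complexes. These counts carry no test, and the lists were made with earlier results of these data known.

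**Figure D4:**
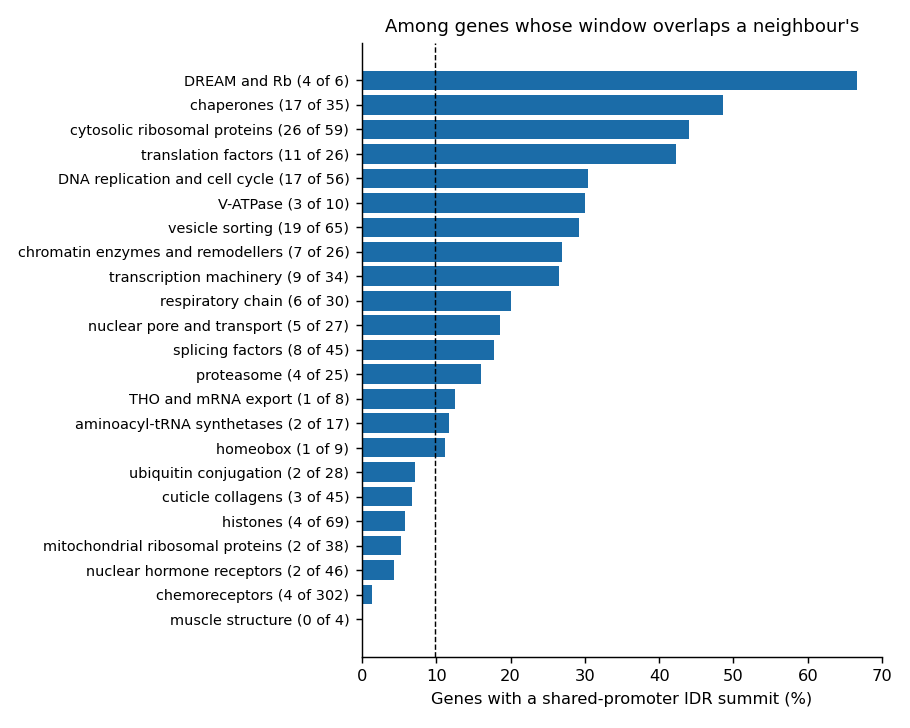
Percent of genes with a shared-promoter IDR summit among the genes of each list whose promoter window overlaps a neighbour's, with the counts beside each name. The dashed line is the 9.80% of all 6071 such autosomal genes, and the bars run from 0 of 4 muscle genes to 4 of 6 DREAM and Rb genes.

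Some peaks joined genes of the same list. Of the 301, 142 had a gene of some list, 23 had at least 2 listed genes and 6 had 2 genes of 1 list (1.99%). The same shares were not computed for all neighbouring genes, so whether 6 is few or many is not known. These 6 were the histone pairs his-68/his-67 with alg-5 (signal 138.2) and his-62/his-61 (116.8), the splicing factors rsp-2/rsp-1 (78.8), the ribosomal proteins rps-30/rpl-39 with C26F1.3 (77.8) and rpl-24.1/rps-10 (71.8), and the small heat shock genes hsp-16.41/hsp-16.2 (73.3). In replicates 1 and 2 the hsp-16 peak had 36.9 and 35.7, and his-62/his-61 had 57.4 and 59.2. The his-68/his-67 peak had 42 and 94.9, a larger difference. Histone genes have near-identical copies, so signal there can be split or shared between copies by mapping. Of the 6, 4 were below a signal of 80.

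The genes at these peaks also differed in their surroundings. A gene on the same strand began within 500 bp after the end of 224 of the 608 genes (36.8%, 95% Wilson interval 33.1 to 40.7%), a spacing that operons often show. The share was 27.3% of genes at single-gene peaks, 22.3% of all genes in divergent pairs with overlapping windows and 19.3% of all autosomal genes. No operon annotation was used. A locus name had been given to 68.9% of the 608 genes, 72.7% of genes at single-gene peaks and 55.4% of all.

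Chromosome III held 85 of the members, with 6.17 per Mb and a peak in both windows of 19.0% of its divergent pairs. The other chromosomes had 14.2% (I), 10.5% (II), 7.94% (IV) and 6.40% (V) of pairs. The stretch from 5 to 6 Mb of III held 18 members, 5 of the strongest 20, and a peak at 16 of its 40 divergent pairs. That stretch stands apart in the whole list, and whether it holds extra copies in this strain was not tested. The share of members among IDR peaks was much the same throughout. It was 33.2% of the 256 on III, 32.5% of the 870 autosomal ones outside the stretch and 32.4% of all 930. Without the stretch, the median of the 283 remaining members was 117.9 and the ratio to single-gene peaks was 1.09. A small noncoding gene began within 500 bp of the summit at 12 members, 7 of them at snoRNA genes, against 28 of 372 single-gene peaks and 60 of 257 peaks in no window.

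Base composition around the summits formed a narrow GC-rich centre in AT-rich surroundings. The mean GC content of 51-bp windows was 49.6% at the summit, 33.0% at 100 bp to the left and 32.4% at 100 bp to the right. Single-gene peaks went from 50.98% to 38.4 and 37.4%, and peaks in no window from 50.5% to 45.2 and 45.5%. Over 100 bp either side, GC averaged 40.9% (SD 7.08) at shared, 44.3% at single-gene and 48.2% at no-window peaks. It was 37.7% at pooled shared regions outside the IDR list.

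**Figure D5:**
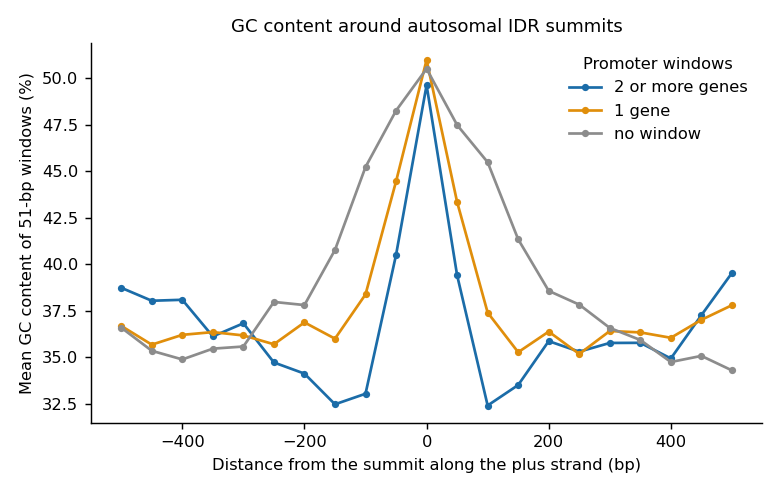
Mean GC content of 51-bp windows against distance from the summit along the plus strand, for the 301 shared-promoter, 372 single-gene and 257 no-window autosomal peaks. The shared-promoter curve falls from 49.6% at the summit to 33.0 and 32.4% at 100 bp, lower than the other curves at that distance.

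A set of 8 words, chosen with earlier results of these peaks known, was sought on both strands in the 100 bp to either side of the summits. GAGAGA stood at 24.3% of shared-promoter summits, 36.0% of single-gene summits and 59.1% of summits in no window. It also stood at 22.3% of the 718 pooled shared regions outside the IDR list and at 11.8% of the midpoints of 2118 divergent pairs without an IDR summit. GACGCAG followed the same order, with 6.64, 15.6 and 23.3% in the 3 classes, 8.36% in the pooled shared regions and 2.46% at midpoints. Base composition differed in the same order and its part was not tested. Either word was present at 84 members (27.9%). Over all autosomal pooled regions GAGAGA stood at 23.0% and GACGCAG at 7.06%, near their shares at the members.

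The ETS words were no more frequent at the members than at the weaker regions. GGAA stood at 83.7% of shared-promoter summits and 84.5% of pooled shared regions outside the IDR list, and CCGGAA at 6.31 and 5.29%, with overlapping Wilson intervals for each. CCGGAA was also at 5.91% of single-gene summits and at 18 of 257 no-window summits. CCGCCC stood at 14.3% of members and 9.33% of pooled shared regions outside the list. TGATAA was at 6.31% against 17.3%, TATAAA at 16.6% against 22.6% and TTTTCAG at 16.9% against 20.5%. These differences were not particular to the members. At single-gene and no-window IDR summits CCGCCC stood at 13.2 and 17.1% and TGATAA at 8.60 and 8.17%. TATAAA stood there at 12.9 and 8.95%, and TTTTCAG at 11.3 and 5.06%. GC content was 40.9% at members and 37.7% at the weaker shared regions, and its part was not tested.

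Some 8-base words were more frequent at the members than at the weaker shared regions. The 3 given here were chosen after the data were seen, from a ranking of 8-base words by the difference between IDR and other pooled regions in shared windows, so their shares there are a description. Within 50 bp, CTAGGCCA stood at 44 of 301 members (14.6%, 95% Wilson interval 11.1 to 19.1%) and 1.53% of the 718 other pooled shared regions. GAGGAGTA and CCACGGCC each stood at 24 members (7.97%), against 0.56 and 0.84%. At least 1 of the 3 was at 73 members (24.3%) and at 2.79% of the others. CTAGGCCA ends in the letters with which CCACGGCC begins, so the pair can share bases. Both were at 11 members, and CTAGGCCA and GAGGAGTA were together at 8.

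Among summits that took no part in the ranking, the order held at single-gene peaks and differed by word and place elsewhere. At autosomal single-gene peaks CTAGGCCA stood at 9.41% of 372 IDR summits and 1.06% of 2929 other pooled summits, and any of the 3 words at 15.1 and 1.74%. On chromosome X, CTAGGCCA stood at 8 of 176 IDR summits (4.55%, 95% Wilson interval 2.32 to 8.71%) and 0.47% of 1908 others, while GAGGAGTA stood at 0 of 176 (interval up to 2.14%) and 4 of 1908. At autosomal summits in no window CTAGGCCA was at 2 of 257 IDR summits (0.78%) and 1.37% of 5687 others, the opposite order within overlapping intervals. The intervals for CTAGGCCA of shared and single-gene IDR summits overlapped, and the difference between these classes was not tested.

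The words had been ranked by their presence within 50 bp of these same summits, against weaker regions. That choice favours sites near the summit, rarity in the flanks and carriers of high signal, so the values that follow are a description. Among sites within 100 bp of the summit, CTAGGCCA was a median of 17 bp away, GAGGAGTA 19.5 bp and CCACGGCC 12 bp. In the flanks 400 to 600 bp away CTAGGCCA stood at 0 of 301 members (interval up to 1.26%). Members with CTAGGCCA had a median signal of 163.5 and those without it 110.3. The word was at 34 of the upper 150 members by signal (22.7%) and 10 of the lower 151 (6.62%). Among the 20 members of highest signal it was at 3 (15%, 95% Wilson interval 5.24 to 36.0%), close to its share of all members, and CCACGGCC was at 0 (interval up to 16.1%). In the replicates taken alone it was at 37 of 275 and 45 of 281 top shared regions. The strongest carriers were cux-7/C07H6.2/lig-4, madf-11/xnd-1, C01G10.7/ahsa-1, F25H9.7/F25H9.6, F09E5.11/bmy-1 and F10E9.11/sas-4. C47E8.4 with hsp-90, dpm-3 with rps-23, and pfd-5 with exos-9 carried it too.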

How the data were processed

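The ce11 lists were used, namely those of 2 biological replicates (1 group), of pooled regions and of IDR peaks. The signal (column 7) and −log10 q (column 9) are as deposited by the authors, and signal served only to rank or describe regions within a list. Per the readme texts deposited by the authors, each replicate's regions came from its alignments and a control, and IDR peaks were drawn from the replicate and pooled lists. Which aligner and peak caller were run, and the thresholds, is not given in the sources used here. The ce10 lists were not used. Summits were assigned to protein-coding starts of Ensembl release 115 (WBcel235) with 1000 bp upstream and 200 bp downstream, sequence came from the RefSeq assembly, and gene products from its annotation. Computation used Python 3.11.15, numpy 2.4.6, scipy 1.17.1 and matplotlib 3.10.9, with 95% Wilson intervals and no test, since there is 1 group. Scripts were checked on simulated windows and words.

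The members, gene lists, words and comparisons were chosen with earlier results of these data known. Named peaks were the 20 of highest and 5 of lowest signal, those with most genes (6), the 5 closest divergent and tandem pairs, those with 2 genes of 1 list, and the 5 of greatest replicate difference. Leading members of gene lists and further tandem peaks and word carriers are named by signal, a choice made after the values were seen.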

Additional observations from a re-analysis of the deposited data

How the results depend on the processing

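Windows of 500 bp upstream and 100 bp downstream gave 200 shared-promoter peaks (21.5% of autosomal peaks, 33.1% of pooled regions in the IDR list, 96.5% divergent, median spacing 398 bp, signal ratio 1.06). Windows of 2000 and 200 bp gave 41.8%, 22.4%, 87.9%, 606.5 bp and 1.12. The upper 50% of peaks by signal gave 174 peaks (37.4%), 17.1% of pooled regions, a ratio of 1.02 and CTAGGCCA at 21.3%. This setting counted only the upper 50% as called, so the fall from 29.5% of pooled regions was fixed in advance. It also cut both classes at a higher signal, and the part of that in the ratio was not tested. Without chromosome III the ratio was 1.04, and without its stretch from 5 to 6 Mb (chosen after seeing the data) 1.09. Each replicate list without the other gave ratios of 1.13 and 1.13, outside 1 SD of the pooled value, and 26.1 to 27.1% of regions. GAGAGA stood at 17.3% of summits within 50 bp and 33.9% within 250 bp, and GACGCAG at 10.96% within 250 bp. The other 52 recomputed values stayed within the Wilson interval or 1 SD of the replicate lists or, for the number of peaks (216 to 389), within 1.5 times the 301. No paired analysis was possible because the 2 replicates form 1 group. Annotated starts, not measured ones, set the classes, and depth is unknown.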
